A study of Mus musculus with 8 samples.

Results

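The collagen gene family was read in mouse bone marrow derived macrophages (BMDMs), as the 44 protein-coding genes whose GENCODE M21 symbol has the form Col, a number, a and a number. The deposited table lists 55421 genes, of which 21976 are protein-coding. By class, the members were 11 fibrillar collagens, 6 basement membrane collagens (type IV), 6 beaded filament collagens (type VI), 9 FACIT collagens (which bind to the surface of fibrils), 3 network collagens (types VIII and X), 4 transmembrane collagens, 2 multiplexins, 1 anchoring fibril collagen (Col7a1) and 2 others (Col26a1 and Col28a1). The rule uses the symbol alone and no measured value.

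The series set 4 WT libraries beside 4 Baf60a KO libraries, all from primary cells after 7 days of differentiation into BMDMs. Baf60a is the protein of Smarcd1, a subunit of SWI/SNF chromatin remodelling complexes, and the design sets transcript levels in its knockout against WT. The series title names C57 mice. Not given in the sources used here are the allele, how it was deleted, the age of the animals, and whether replicates are different mice; p-values therefore speak only of the spread between libraries, part of which may be technical. Values are TPM, a unit of transcript abundance that accounts for transcript length and gives each library an equal sum, so levels of different genes can be compared, while read depth is unknown.

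A collagen chain is built on a repeat of units that each start with glycine (Gly-X-Y), which lets the chains wind around each other into a helix. In fibrillar collagens this helix is long and unbroken and the molecules pack into fibres; in basement membrane collagens it is interrupted, and the molecules join into sheets. Collagens are known above all as products of fibroblasts and related stromal cells, while macrophages are better known for taking up and degrading them.

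The glycine repeat was visible in the coding sequences of the members, and its longest run set the fibrillar genes apart from the other classes. Most of those overlapped among themselves, while the multiplexins (30 triplets) and Col26a1 and Col28a1 (23 and 28 triplets) lay below the rest. Triplets of codons that start with a glycine codon (GGN) were counted in the longest GENCODE M21 coding sequence of each gene. The longest unbroken run was 216 to 344 triplets in the fibrillar genes (median 338), with the shortest in Col24a1 (216) and Col27a1 (217). In basement membrane genes it was 39 to 66 triplets, although runs of at least 5 triplets covered 74.9% to 78.8% of their codons, since the repeat was cut into 22 to 27 runs. Network genes had a longest run of 59 or 60 triplets, FACIT genes 32 to 113, and beaded filament genes 37 to 87. The stretches printed here show a fibrillar gene, a network gene and a basement membrane gene, with the glycine codons of the repeat in capitals. Col3a1 (coding bases 490 to 561) and Col8a1 (coding bases 1063 to 1134) start their longest runs here, and the third stretch, Col4a1 (coding bases 460 to 543), holds a break of 10 codons in the repeat.
Col3a1: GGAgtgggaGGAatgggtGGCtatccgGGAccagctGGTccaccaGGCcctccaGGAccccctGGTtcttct
Col8a1: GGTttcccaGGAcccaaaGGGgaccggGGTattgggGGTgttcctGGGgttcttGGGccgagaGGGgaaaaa
Col4a1: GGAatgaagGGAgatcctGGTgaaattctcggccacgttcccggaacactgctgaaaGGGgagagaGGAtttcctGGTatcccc

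**Figure D1:**
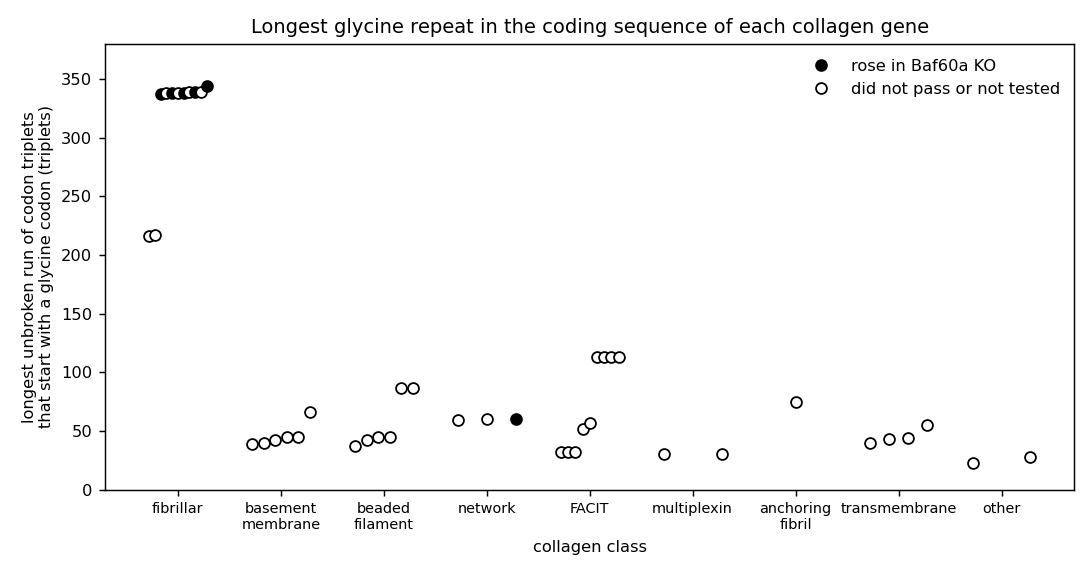
Longest unbroken run of codon triplets that start with a glycine codon (vertical axis, in triplets) for each of the 44 collagen genes, grouped by class; filled points are genes that rose in Baf60a KO. The fibrillar genes lie at 216 to 344 triplets and every other class lies at or below 113.

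Repeats of this kind could blur the assignment of short reads, so the share of 51-base words that a member's transcripts hold in common with any other gene was counted. This share was 0% for 4 of the 6 genes that rose in the comparison of groups (Col1a1, Col5a2, Col5a3 and Col8a1). It was 0.917% for Col3a1, from a small RNA annotated inside it on the same strand, and 1.39% for Col5a1, mainly from a transcript annotated on the opposite strand; whether strand was used in the counting is not stated. Among tested members the highest share was 4.85%, in Col9a3, whose exons overlap those of Tcfl5 on the opposite strand, so values of Col9a3 are uncertain to that extent. Transcripts of Col4a1 and Col4a2 overlap by 22 bases on opposite strands.

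Before the collagens, 3 facts of the series bear on what follows. Smarcd1 (chromosome 15) was at 14.8 ± 0.998 TPM in WT (SD, n = 4) and 10.5 ± 0.447 in Baf60a KO, with no overlap of the groups (log2 fold change -0.47, SE 0.0606, limma adjusted p = 0.00756). A gene-level value does not show whether the remaining transcripts carry the deleted part, and a ratio of 0.705 leaves most of the signal in place. WT replicates 3 and 4 stood apart, with 12.0% and 12.2% of their TPM in processed pseudogenes against 6.78% to 8.38% in the other 6 libraries. Between 13727 and 14027 genes exceeded 1 TPM per library.

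Collagen transcripts were abundant in these cultures. The 44 members summed to 4934, 5293, 4700.4 and 5035 TPM in WT replicates 1 to 4, and to 5670.4, 5869.98, 5977 and 6047 TPM in KO replicates 1 to 4. These are 0.499% and 0.589% of all TPM, at 4991 ± 246 in WT and 5891 ± 164 in KO (SD, n = 4), and each KO library lay above every WT library. Col1a2 and Col1a1, the chains of type I collagen of skin, tendon and bone, ranked 82 and 84 among the 21976 protein-coding genes by mean WT level, next to the macrophage marker Cd68 at 89. These type I chains held 61.5% to 62.7% of the family's TPM in every library. With Col5a2, Col3a1 and Col5a1 added the share was 80.4% to 82.3%, and the 10 most abundant members held 94.7% to 95.0%.

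The order of levels was nearly the same in both groups. In WT, Col1a2 and Col1a1 overlapped in range at the top. Col5a2 (332 TPM), Col3a1 (311) and Col5a1 (301) followed, each overlapping with its neighbour in the order, and none overlapping with Col1a1. Below them Col6a1 (186) and Col4a1 (183) overlapped, then came Col6a2 (149), which overlapped with neither neighbour, and Col4a2 (97.5) and Col12a1 (85.7), which overlapped with each other. These levels are per length, as TPM gives them. In KO the first 5 places held the same genes, and Col1a1 (1873) and Col1a2 (1785) changed places, again with overlapping ranges.

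**Figure D2:**
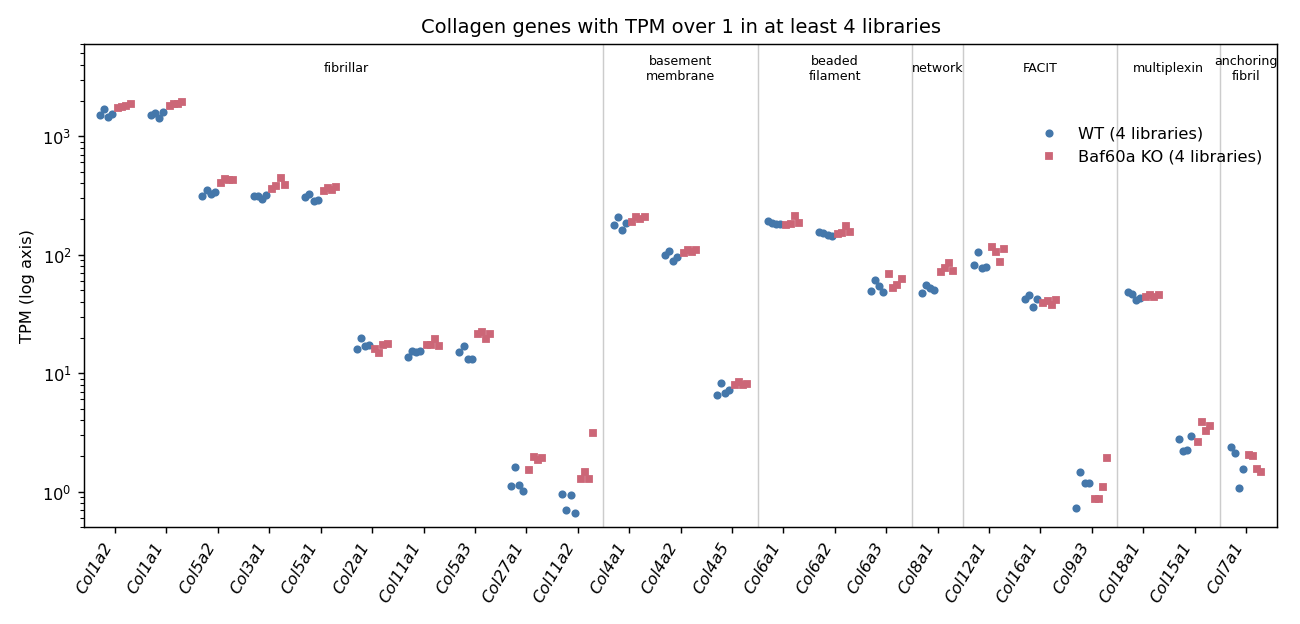
TPM (log axis) of the 23 collagen genes that passed the filter, in each of the 4 WT and 4 Baf60a KO libraries, grouped by class and ordered by WT level. The type I chains lie at 1431 TPM or more in every library, and levels go down to Col11a2, which lies below 1 TPM in WT.

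Of the 44 members, 23 had TPM over 1 in at least 4 of the 8 libraries, the condition for testing, and 21 did not. Col11a2 met it only through its KO libraries, so its difference is partly built into its being tested, and counts over tested members describe those genes and not the family. Groups were compared with limma on log2(TPM + 1) over all 13933 genes that met the condition, and a gene was called to rise or fall at an adjusted p under 0.05. Across those genes 5.61% were called, 4.4% as higher and 1.21% as lower in KO, and the median log2 fold change was 0.03. The split of 613 rises and 169 falls moved with scaling: it was 530 and 408 with median-of-ratios scaling, 440 and 254 with quantile normalization, and 598 and 321 with TPM rescaled over protein-coding genes.

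Against that background, 6 of the 23 tested collagens (26.1%) rose and 0 fell. The risers were the fibrillar genes Col1a1, Col3a1, Col5a1, Col5a2 and Col5a3 and the network gene Col8a1. At an unadjusted p under 0.05 the limma counts were 13 higher and 0 lower, where 22.3% of all tested genes were under that limit, 15.9% as higher and 6.42% as lower. The median log2 fold change was 0.20, within a range of -0.08 to 0.58. Of the 23, 21 were above 0 with TPM as deposited, where 57.5% of all tested genes were, and 17 to 18 with the other scalings. The WT and KO ranges did not overlap for 9 of the 23, all higher in KO, where 11.9% of all tested genes were separated in that direction, 3.96% in the other and 15.8% in either. These 9 include Col11a2, which was tested only through its KO libraries. Which cells carry the difference was not measured, and in bulk RNA more cells of a type and more RNA per cell cannot be told apart. The count of 6 fell to 2 without KO replicate 4, 3 without KO replicate 2, 4 without KO replicate 1 or WT replicate 4, and 4 without WT replicates 3 and 4 together.

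**Figure D3:**
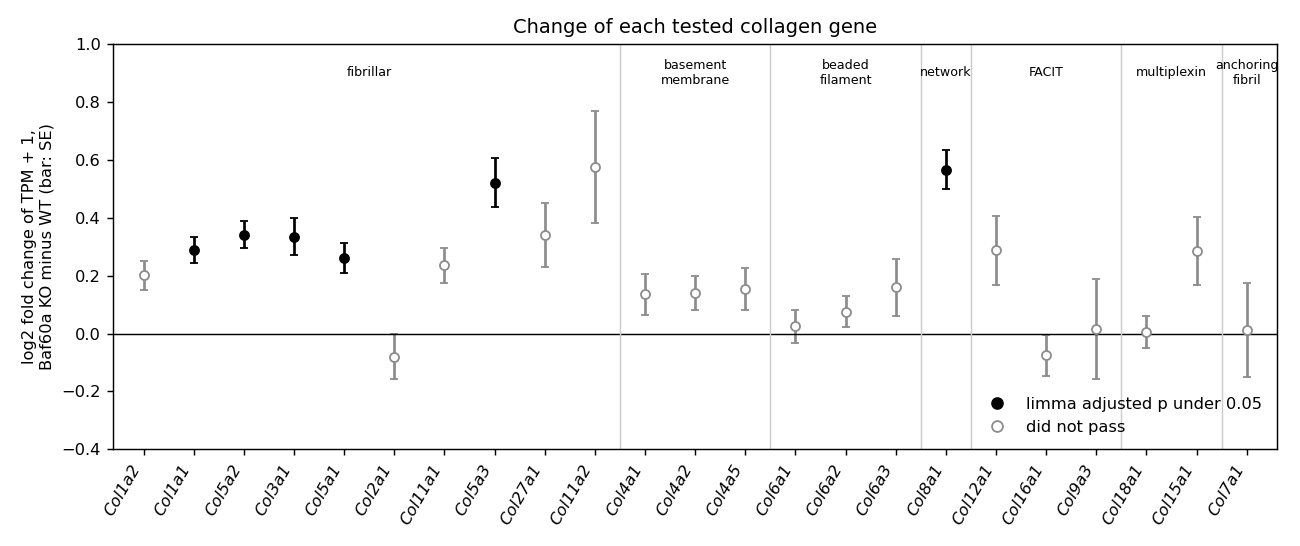
Log2 fold change of TPM + 1 (Baf60a KO minus WT, vertical axis) with its SE for the 23 tested collagen genes, by class; filled points passed at a limma adjusted p under 0.05. The 5 filled fibrillar points and Col8a1 lie between 0.26 and 0.57, and 2 genes lie below 0.

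Among the fibrillar genes, 5 of 10 tested rose and 8 of 10 had separate groups, with a median log2 fold change of 0.31. All 8 were higher in KO, and they include Col11a2, which was tested only through its KO libraries. Among all tested genes 4.4% rose and 11.9% were separate and higher in KO. Col1a1 (chromosome 11, 94936224 to 94953042, build mm10), the alpha-1 chain of type I collagen, was at 1524, 1575, 1431 and 1605 TPM in WT replicates 1 to 4. In KO it was at 1807, 1865, 1882 and 1939 TPM. The lowest KO library was above the highest WT library, and the fold change was 0.29 on the log2 scale (SE 0.0451, limma adjusted p = 0.0131). The call was lost without KO replicate 4 (adjusted p = 0.0573) and with no filter on low values (0.0501). Its partner Col1a2 was at 1519.7, 1689, 1462 and 1546 TPM in WT and at 1724, 1766, 1795 and 1856 TPM in KO. These groups did not overlap either, but WT replicate 2 came close to the lowest KO library, and Col1a2 did not pass (log2 fold change 0.20, limma adjusted p = 0.0532). It passed without WT replicate 2 (adjusted p = 0.0340), with median-of-ratios scaling (0.0481) and with quantile normalization (0.0499).

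Col3a1 (chromosome 1, 45311538 to 45349706) encodes type III collagen, which forms fine reticular fibres beside type I. Its TPM was 313, 314, 294 and 322 in WT and 359.9, 384, 443 and 386 in KO. WT libraries lay close together and KO replicate 3 stood highest, with no overlap of the groups (log2 fold change 0.34, SE 0.0639, limma adjusted p = 0.0270). The call was lost without WT replicate 2 (adjusted p = 0.0532), WT replicate 4 (0.0561), KO replicate 2 (0.0676) or KO replicate 4 (0.0768), without WT replicates 3 and 4 together (0.0688), with no filter (0.0577) and in the fit blocked by replicate number (0.0852).

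Type V collagen, which sits inside type I fibrils and limits their width, rose in all its 3 chains. Col5a2 (chromosome 1, 45374321 to 45503282) was at 312, 350.3, 326 and 340.1 TPM in WT and 399.8, 435, 424 and 423 TPM in KO. The gap between the groups exceeded the spread within each, and the fold change was 0.34 (log2, SE 0.0466, limma adjusted p = 0.00873), a call that held without any 1 library. Col5a1 (chromosome 2, 27886425 to 28039514) was at 306, 326, 282 and 289.6 TPM in WT and 347, 367, 354 and 373 TPM in KO (log2 fold change 0.26, SE 0.0514, limma adjusted p = 0.0285). Its groups were separate, but the call was lost without WT replicate 4 (adjusted p = 0.0754), KO replicate 1 (0.0614), 2 (0.0844), 3 (0.0738) or 4 (0.0929), without WT replicates 3 and 4 (0.0705), with quantile normalization (0.0509), with no filter (0.0583) and in the fit blocked by replicate number (0.0689). Col5a3 (chromosome 9, 20770050 to 20815067), a chain made at far lower levels, was at 15.1, 16.9, 13.1 and 13.1 TPM in WT and 21.6, 22.2, 19.6 and 21.4 TPM in KO. Of the 5 fibrillar risers it had the highest ratio of means, 1.46, with separate groups (log2 fold change 0.52, SE 0.0842, limma adjusted p = 0.0154). The call was lost without KO replicate 1 (adjusted p = 0.05005), 2 (0.0532) or 4 (0.0584).

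The other fibrillar genes did not pass. Col11a1, a chain of the thin fibrils of cartilage, was at 13.8, 15.4, 15.0 and 15.5 TPM in WT and 17.3, 17.3, 19.4 and 17.0 TPM in KO, with separate groups (log2 fold change 0.24, limma adjusted p = 0.0579). Col11a2, its partner chain, was at 0.95, 0.7, 0.94 and 0.66 TPM in WT and 1.27, 1.48, 1.27 and 3.12 TPM in KO. KO replicate 4 stood far above the rest, and the adjusted p was 0.125 (limma log2 fold change 0.58, SE 0.195). Col27a1 was at 1.12, 1.63, 1.13 and 1.01 TPM in WT and 1.51, 1.96, 1.84 and 1.91 TPM in KO, with overlapping groups (limma adjusted p = 0.114). Col2a1, the main collagen of cartilage, went the other way in its means, at 16.0, 19.8, 17.0 and 17.2 TPM in WT and 15.9, 15.0, 17.4 and 17.7 TPM in KO. Its groups overlapped (log2 fold change -0.08, limma adjusted p = 0.614), while all 5 chondrocyte markers read beside it, Sox9, Acan, Matn3, Comp and Hapln1, were below 1 TPM in every library. Col24a1 was between 0.02 and 0.12 TPM and was not tested.

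Col8a1 (chromosome 16, 57624258 to 57754737) encodes a short-chain collagen that forms hexagonal networks beneath endothelium and in vessel walls. It was at 47.8, 55.9, 51.9 and 50.6 TPM in WT and 71.8, 77.4, 85.2 and 73.1 TPM in KO. Of all tested collagens it had the smallest p, with a ratio of means of 1.49 and a wide gap between the groups (log2 fold change 0.57, SE 0.0673, limma adjusted p = 0.00492). The call held without any 1 library, with adjusted p up to 0.0233, and in each of the 10 other fits tried. Its network relatives were low: Col8a2, the partner chain, ranged from 0.58 to 1.19 TPM and Col10a1, a marker of hypertrophic cartilage, from 0.34 to 1.11 TPM, and neither met the condition for testing.

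**Figure D4:**
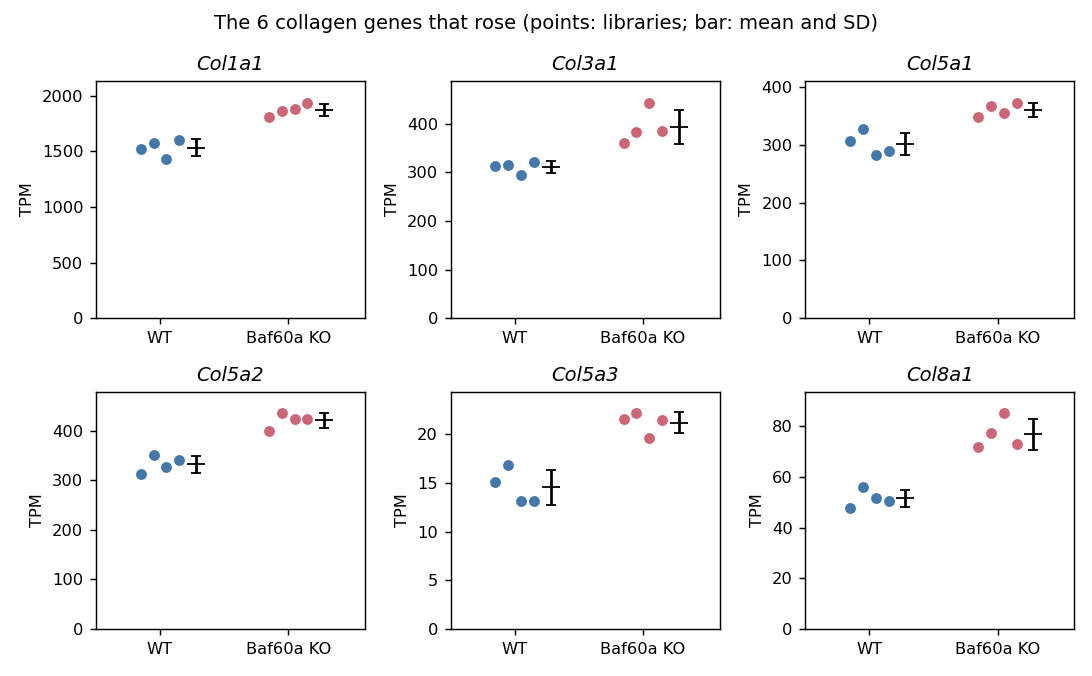
TPM in each library (points, horizontal order by replicate within a group) for the 6 collagen genes that rose in Baf60a KO, with mean and SD (bars, n = 4). In all 6 panels the lowest KO library is above the highest WT library.

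No basement membrane collagen passed the test. The main chains Col4a1 and Col4a2 lie head to head on chromosome 8 (11198423 to 11449287) and were among the more abundant members. Col4a1 was at 179, 207, 163 and 184 TPM in WT and 188, 208, 199.9 and 207 TPM in KO, with overlapping groups (log2 fold change 0.14, SE 0.0708, limma adjusted p = 0.303). Col4a2 was at 99.4, 107, 88.3 and 95.0 TPM in WT and 104, 110.0, 106 and 109.8 TPM in KO (0.14, SE 0.0599, limma adjusted p = 0.210). Both were lowest in WT replicate 3. Col4a5 was lower, at 6.52, 8.21, 6.79 and 7.19 TPM in WT and 7.93, 8.42, 7.91 and 8.05 TPM in KO (0.15, limma adjusted p = 0.253). Limma called 0 of the 3, and 1, Col4a2, was under 0.05 unadjusted, where 5.61% and 22.3% of all tested genes were. Col4a3, Col4a4 and Col4a6, which serve in kidney, lung and smooth muscle basement membranes, were at or below 0.17 TPM in every library.

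The beaded filament, FACIT, multiplexin and anchoring fibril collagens did not pass either. Col6a1 was at 192, 187, 182 and 182 TPM in WT and 178, 183, 212 and 185 TPM in KO. Col6a2 was at 154, 151, 146 and 144 TPM in WT and 148, 152, 173 and 155 TPM in KO. In both, KO replicate 3 was the highest library and the groups overlapped, and the limma fold changes were 0.03 (adjusted p = 0.854) and 0.08 (0.460) on the log2 scale. Col6a3 was at 49.6, 60.8, 54.6 and 48.6 TPM in WT and 68.8, 52.7, 55.7 and 62.1 TPM in KO (0.16, limma adjusted p = 0.386). Col12a1, a FACIT collagen of dense connective tissue, was at 82.3, 104.9, 77.6 and 78.0 TPM in WT and 116, 105, 86.2 and 111 TPM in KO. Its groups overlapped through WT replicate 2 and KO replicate 3 (log2 fold change 0.29, SE 0.119, limma adjusted p = 0.196). Col16a1, another FACIT collagen, was at 42.5, 45.9, 36.5 and 41.9 TPM in WT and 38.8, 40.3, 37.4 and 41.2 TPM in KO (-0.08, limma adjusted p = 0.586).

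Col18a1, the source of endostatin, had overlapping groups, at 48.2, 46.8, 41.1 and 43.3 TPM in WT and 43.9, 46.0, 44.4 and 45.4 TPM in KO (log2 fold change 0.00, SE 0.0550, limma adjusted p = 0.980). Col15a1, the other multiplexin, was at 2.8, 2.2, 2.23 and 2.96 TPM in WT and 2.61, 3.85, 3.26 and 3.6 TPM in KO (0.29, limma adjusted p = 0.199). Its groups overlapped through KO replicate 1. Col7a1, which anchors the epidermis to the dermis, was at 2.37, 2.13, 1.08 and 1.54 TPM in WT and 2.06, 2.01, 1.54 and 1.46 TPM in KO (limma adjusted p = 0.981). Col9a3 was at 0.73, 1.46, 1.19 and 1.18 TPM in WT and 0.86, 0.86, 1.1 and 1.92 TPM in KO (limma adjusted p = 0.976). By limma the unadjusted p was under 0.05 for 0 of the 3 beaded filament genes, 1 of the 3 FACIT genes (Col12a1) and 1 of the 2 multiplexins (Col15a1). That limit was met by 22.3% of all tested genes.

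The 21 members that were not tested summed to 4.42 to 5.28 TPM per library, and 7 of them never exceeded 0.1 TPM. Those with a group mean over 0.1 TPM were Col8a2, Col10a1, Col28a1, Col20a1, Col23a1, Col6a4, Col13a1, Col6a5, Col14a1 and Col17a1. Single libraries set some of these levels: Col17a1, a hemidesmosome collagen, was at 0.5 TPM in WT replicate 4 and at most 0.07 elsewhere, and Col6a5 was at 0.63 TPM in WT replicate 1. In the fit with no filter, limma called 0 of the 21, where 364 of all 27510 genes were called. Unadjusted, 3943 of all genes in that fit were under 0.05, and so was 1 of the 21, Col24a1. Its groups were separate and lower in KO, at 0.0975 ± 0.0206 and 0.04 ± 0.0183 TPM (limma adjusted p = 0.120).

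Class shares of the family moved by small amounts. Fibrillar genes held 81.8% ± 0.469 of collagen TPM in WT and 83.0% ± 0.205 in KO (SD, n = 4), with the KO libraries (82.8% to 83.3%) all above the WT libraries (81.4% to 82.4%). Beaded filament genes held 7.80% ± 0.360 and 6.91% ± 0.356, and basement membrane genes 5.76% ± 0.250 and 5.37% ± 0.140. The network share was 1.06% ± 0.0623 and 1.33% ± 0.0962, nearly all of it Col8a1.

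Chains of 1 collagen type, not all of which join into the same molecule, can be set beside each other within a library, which removes scaling between libraries. Of 11 ratios between chains of a type, 3 were separated between the groups at the smallest p this design allows (exact two-sided permutation test, p = 0.0286, n = 4 and 4), and none passed after adjustment over the 11 (0.105). At that p a ratio could pass only if many others were separated too, so the adjusted result cannot decide on a single ratio. Ratios between genes outside the family were not formed, so the count of 3 has no background share. The ratio of Col1a1 to Col1a2 was 1.003, 0.933, 0.979 and 1.04 in WT and 1.05, 1.06, 1.05 and 1.04 in KO. KO libraries were tightly grouped (1.05 ± 0.00493) above a wider WT group (0.988 ± 0.0445). Col5a1 to Col5a3 went from 20.8 ± 1.22 to 17.0 ± 0.891 and Col6a1 to Col6a2 from 1.247 ± 0.0133 to 1.204 ± 0.0134. The ratio of Col4a1 to Col4a2 was 1.88 ± 0.0632 in WT and 1.87 ± 0.0371 in KO (exact permutation p = 0.886).

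Relative to Col1a1, 9 of the 22 other tested members were separated at the same exact p of 0.0286 (permutation test), and none passed after adjustment over the 22 (0.0698). The same limit on passing applies here. Ratios to Col1a1 were not formed for genes outside the family, so the count of 9 has no share of all tested genes beside it. Col1a1 itself rose, so a member that stayed level comes out lower in this ratio. Those lower relative to Col1a1 in KO were Col1a2, Col2a1, Col4a1, Col4a2, Col6a1, Col16a1 and Col18a1, and those higher were Col8a1 and Col11a2. Col11a2 met the condition for testing only through its KO libraries, so its separation is partly built in and its p is no evidence. The ratio of Col8a1 to Col1a1 was 0.0337 ± 0.00259 in WT and 0.0410 ± 0.00321 in KO. Col3a1 kept a ratio of 0.203 ± 0.00309 and 0.210 ± 0.0175 (exact permutation p = 0.771), and Col5a2 one of 0.217 ± 0.0105 and 0.224 ± 0.00646 (exact permutation p = 0.257).

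Several members are neighbours in the genome. Col3a1 and Col5a2 lie tail to tail on chromosome 1, 24614 bases apart, and both rose with a log2 fold change of 0.34. Col4a1 and Col4a2 share a start region and had equal fold changes (0.14). Col4a4 and Col4a3, 71 bases apart on chromosome 1, were both near 0 TPM, whereas Col4a6 and Col4a5, 1308 bases apart on chromosome X, differed in level, with Col4a6 at or below 0.17 TPM and Col4a5 above 6 TPM. Col6a2 and Col6a1 lie on 1 strand of chromosome 10, 85161 bases apart.

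The 250 bases before the start were read for the risers that have a RefSeq promoter entry (GRCm38.p6, the assembly of mm10), since these genes moved together. Each is printed in the direction of the gene, with every match, on either strand, to any of 5 short motifs in capitals. These were the CCAAT box, the TATAA core of the TATA box, the GC box GGGCGG bound by Sp1, the AP-1 motif TGANTCA and the TEAD motif GGAATG. Col3a1 is at chr1:45311288-45311537 on the plus strand, Col5a1 at chr2:27886175-27886424 on the plus strand, Col5a3 at chr9:20815068-20815317 on the minus strand and Col8a1 at chr16:57754738-57754987 on the minus strand.
Col3a1: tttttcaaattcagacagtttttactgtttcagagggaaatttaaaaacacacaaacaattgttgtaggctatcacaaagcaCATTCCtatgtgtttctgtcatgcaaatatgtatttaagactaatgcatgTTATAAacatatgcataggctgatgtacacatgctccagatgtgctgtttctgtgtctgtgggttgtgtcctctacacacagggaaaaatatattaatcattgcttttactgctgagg
Col5a1: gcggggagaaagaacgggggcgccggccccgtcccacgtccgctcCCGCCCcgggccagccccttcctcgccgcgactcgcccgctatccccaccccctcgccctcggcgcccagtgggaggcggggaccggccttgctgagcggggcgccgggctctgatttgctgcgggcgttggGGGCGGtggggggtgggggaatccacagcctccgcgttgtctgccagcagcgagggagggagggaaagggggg
Col5a3: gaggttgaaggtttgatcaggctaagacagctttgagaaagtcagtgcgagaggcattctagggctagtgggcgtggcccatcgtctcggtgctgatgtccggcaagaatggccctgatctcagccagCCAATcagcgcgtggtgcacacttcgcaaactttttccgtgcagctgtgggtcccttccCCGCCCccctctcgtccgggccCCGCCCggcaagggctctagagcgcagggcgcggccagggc
Col8a1: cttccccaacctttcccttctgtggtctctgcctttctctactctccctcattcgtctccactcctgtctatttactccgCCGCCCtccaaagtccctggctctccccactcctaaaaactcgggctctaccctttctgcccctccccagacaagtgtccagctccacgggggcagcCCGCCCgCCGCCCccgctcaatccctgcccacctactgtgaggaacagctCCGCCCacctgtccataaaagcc

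GC content was 35.2% for Col3a1, 76.4% for Col5a1, 62.8% for Col5a3 and 60.8% for Col8a1, so that 3 of the 4 lay above the median of 52.4% over all 32851 entries and Col3a1 lay below it. Col3a1 held a GGAATG match 168 bases before the start and overlapping TATAA matches, 1 on each strand, at 118 and 117. Col5a1 held GGGCGG at 205 and 73, Col5a3 a CCAAT at 122 and GGGCGG at 63 and 41, and Col8a1 GGGCGG at 170, 73, 66 and 23. Of the 18 tested members with an entry, 13 held GGGCGG (32.7% of all entries), 9 CCAAT (33.8%), 3 GGAATG (12.6%), 2 TATAA (22.8%) and 1 TGANTCA (6.75%). A member was counted if any of its entries held the motif, while the percentages are over single entries, so these are unlike shares. A match is a string of letters and not a measured binding site.

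Genes that make, trim and bind collagen were read from lists of their own. Of 22 biosynthesis genes, 21 were tested; 2 rose and 0 fell (limma; 11 higher and 1 lower at an unadjusted p under 0.05), with a median log2 fold change of 0.12. The 9.52% called in this list compares with 5.61% of all tested genes, and its unadjusted count with 22.3% of them. Creb3l1, a membrane-bound transcription factor that acts on type I collagen genes in bone, went from 34.0 ± 1.95 to 41.1 ± 1.74 TPM (0.27, limma adjusted p = 0.0288). P3h1, a prolyl 3-hydroxylase, went from 31.4 ± 1.15 to 37.0 ± 1.82 TPM (0.23, limma adjusted p = 0.0352). Both calls were fragile: they were lost in 6 and 7 of the 8 fits with 1 library left out, with adjusted p up to 0.0834 and 0.0929. The abundant members did not pass: the chaperone Serpinh1 averaged 929 ± 39.3 TPM over WT and 975 ± 28.3 over KO libraries (adjusted p = 0.366), the matrix protein Sparc at 1767 ± 89.7 and 1919.9 ± 66.4 (0.171), and the prolyl isomerase Ppib at 594 ± 31.6 and 623 ± 7.34 (0.386, all limma). Collagen TPM per TPM of this list was 1.01 ± 0.0234 in WT and 1.11 ± 0.0313 in KO, with separate groups.

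Of 15 genes for processing and cross-linking, 11 were tested. By limma 4 rose and 1 fell (7 higher and 2 lower at an unadjusted p under 0.05), with a median log2 fold change of 0.26. Among all tested genes 4.4% rose, 1.21% fell and 22.3% were under that unadjusted limit. Bmp1, the proteinase that removes the C-terminal propeptide of fibrillar collagens, was at 89.2, 91.7, 86.0 and 83.9 TPM in WT and 114.8, 124, 119.7 and 118.9 TPM in KO. All KO values were above all WT values (log2 fold change 0.44, limma adjusted p = 0.00181). Loxl1, a lysyl oxidase that cross-links fibres, was at 72.9, 72.5, 73.7 and 71.0 TPM in WT and 90.7, 94.1, 108.5 and 96.3 TPM in KO (0.42, limma adjusted p = 0.00829). Both calls held without any 1 library. The related oxidases Lox (630 ± 35.6 to 754 ± 25.5 TPM, log2 fold change 0.26, limma adjusted p = 0.0250) and Loxl2 (197 ± 17.6 to 240.1 ± 7.25 TPM, 0.29, 0.0356) also rose, and lost their calls in 5 and 7 of the 8 fits with 1 library left out (adjusted p up to 0.0741 and 0.103). Adamts14, which removes the N-terminal propeptide, fell from 11.7 ± 0.539 to 9.42 ± 0.760 TPM (-0.29, limma adjusted p = 0.0428), a call lost in each of the 8. Loxl3, another lysyl oxidase, was at 121 ± 6.20 and 107 ± 2.36 TPM, with separate groups (log2 fold change -0.18, limma adjusted p = 0.0507). It was called as lower with median-of-ratios scaling (adjusted p = 0.0283), TPM rescaled over protein-coding genes (0.0449) and quantile normalization (0.0357), so that 4 rose and 2 fell in each of these fits. Pcolce, an enhancer of Bmp1, was at 138 ± 8.19 and 155 ± 10.4 TPM (limma adjusted p = 0.143), and Adamts2 at 33.5 ± 2.92 and 36.9 ± 1.89 (0.285).

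Of 18 genes for collagen receptors, uptake and degradation, 15 were tested; 4 rose and 0 fell by limma (8 higher and 2 lower at an unadjusted p under 0.05), with a median log2 fold change of 0.11. The same shares of all tested genes, 5.61% and 22.3%, stand beside these counts, and with median-of-ratios scaling 3 rose and 1 fell, since Itga1 lost its call (adjusted p = 0.0514) and Mmp8, a collagenase of neutrophils, gained one (0.0464). Itga11, the integrin alpha chain that binds fibrillar collagen on mesenchymal cells, was at 40.6, 44.3, 46.6 and 41.7 TPM in WT and 70.9, 70.5, 79.9 and 72.8 TPM in KO. No library of 1 group came near the other (log2 fold change 0.75, limma adjusted p = 0.000808), and the call held without any 1 library. Mmp14, a membrane collagenase (161 ± 7.97 to 194 ± 5.44 TPM, 0.26, limma adjusted p = 0.0193), Ddr1, a collagen-binding receptor kinase (18.1 ± 1.15 to 23.1 ± 0.933, 0.33, 0.0206), and Itga1, a receptor of basement membrane collagen (3.88 ± 0.199 to 5.43 ± 0.757, 0.39, 0.0439), also rose. Their calls were lost in 3, 3 and 8 of the 8 fits with 1 library left out, with adjusted p up to 0.0708, 0.0743 and 0.112. Mrc1, the mannose receptor through which macrophages take up collagen fragments, averaged 79.3 ± 9.28 TPM over WT and 71.8 ± 4.57 over KO libraries and was not called, nor were Itgb1 (440.2 ± 23.7 and 470.3 ± 10.9) and Mmp2 (100.4 ± 3.87 and 108 ± 3.23).

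Some markers of other cell types were also higher in KO, and others were level or lower. Of 12 stromal markers that are not collagens, 10 were tested and 5 rose: Thy1 (3.11 ± 0.200 to 7.57 ± 0.837 TPM), Pdgfrb (27.4 ± 1.34 to 37.3 ± 1.26), Postn (213 ± 12.0 to 293 ± 22.7), S100a4 (296 ± 26.9 to 405 ± 33.2) and Mfap5 (3.39 ± 0.544 to 5.07 ± 0.431). The Mfap5 call was lost in 7 of the 8 fits with 1 library left out, with limma adjusted p up to 0.0925. Without KO replicate 1, 3 or 4 only 3 stromal markers were called, so a further call besides that of Mfap5 was lost there. The Pdgfrb call held without any 1 library. Pdgfra, another marker of this list, was at 11.2 ± 0.618 and 11.8 ± 1.05 TPM (limma adjusted p = 0.713). Among all tested genes 4.4% rose and 1.21% fell, which stands beside the count of each marker list. The stromal list summed to 1003 to 1121 TPM in WT and 1272 to 1395 TPM in KO. Most of that sum came from S100a4, Fstl1, Cxcl12 and Postn, and which cells carry S100a4 was not measured. Lum and Lepr, which mark fibroblasts and marrow stroma, were below 1 TPM in every library, and Cxcl12 (232 ± 22.3 and 232 ± 38.7), Fstl1 (272 ± 15.9 and 299 ± 11.0) and Fbln1 (12.5 ± 1.08 and 12.4 ± 0.449) did not pass. Dcn, a proteoglycan of fibroblasts, was at 9.2, 6.06, 4.38 and 4.02 TPM in WT and 3.58, 4.53, 4.42 and 3.3 TPM in KO, with overlapping groups (log2 fold change -0.43, limma adjusted p = 0.277). Collagen TPM per stromal marker TPM was 4.62, 4.75, 4.19 and 5.02 in WT and 4.46, 4.55, 4.28 and 4.75 in KO, so the groups overlapped on this ratio. Of 8 smooth muscle and pericyte markers, 5 were tested and 3 rose (Acta2, Cnn1 and Myl9). The Acta2 and Cnn1 calls held without any 1 library, and the Myl9 call (239.96 TPM in WT and 291 in KO, limma adjusted p = 0.0378) was lost in 6 of the 8 fits with 1 library left out, with adjusted p up to 0.109, and with median-of-ratios scaling (0.0679) and TPM rescaled over protein-coding genes (0.0507). Des, the muscle intermediate filament, went the other way in its means, at 3.71, 3.17, 2.79 and 3.56 TPM in WT and 2.14, 2.05, 2.77 and 2.17 TPM in KO. Its groups were separate and it was not called (log2 fold change -0.39, limma adjusted p = 0.0627), but it was called as lower with median-of-ratios scaling (0.0437) and with TPM rescaled over protein-coding genes (0.0441). That list summed to 2256 to 2552 TPM in WT and 3005 to 3198 TPM in KO, with Myh11, Cspg4 and Rgs5 below 1 TPM throughout. The part of these cells in the collagen values was not tested.

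Markers of the labelled cell type were present at high levels. All 10 macrophage markers were tested. Cd68 and Itgam rose and Lyz2 fell, where 4.4% of all tested genes rose and 1.21% fell. The log2 fold change was above 0 for 9 of the 10, all but Lyz2, and for 57.5% of all tested genes. Lyz2, the lysozyme of myeloid cells, went from 3993 ± 248 to 1927 ± 110.1 TPM (limma adjusted p = 0.000195), a call that held in all 18 other fits. The calls of Cd68 (1472 ± 141 to 1791 ± 35.7 TPM, limma adjusted p = 0.0394) and Itgam (56.5 ± 6.56 to 76.99 ± 5.96 TPM, 0.0285) were lost in 7 and 6 of the 8 fits with 1 library left out, with adjusted p up to 0.109 and 0.0885, and that of Cd68 also with quantile normalization (0.0776). The 10 markers summed to 5857 to 6811 TPM in WT and 4388 to 4724 TPM in KO, and without Lyz2 to 2063 to 2502 TPM and 2579 to 2676 TPM. Endothelial markers were low (33.1 to 42.5 TPM and 42.6 to 49.2 TPM), with 2 of 5 tested, Pecam1 and Emcn, called as risers and Tek below 1 TPM. The Pecam1 call held without any 1 library. It was lost without WT replicates 3 and 4 together and in the fit blocked by replicate number (limma adjusted p = 0.0633). The Emcn call (limma adjusted p = 0.0342) was lost in 6 of the 8 fits with 1 library left out, with adjusted p up to 0.0944. Vwf, another endothelial marker, averaged 10.7 ± 2.06 TPM over WT and 8.50 ± 1.24 over KO libraries with overlapping groups (log2 fold change -0.30, limma adjusted p = 0.239). Adipocyte markers summed to 482 to 630 TPM and 448 to 509.9 TPM, nearly all of it from Fabp4 (533 ± 55.0 and 479 ± 26.3 TPM), which macrophages also express, while Adipoq, Plin1, Cidec and Cfd averaged 1.43 to 3.99 TPM in WT. Osteoblast markers summed to 13.4 to 15.1 TPM and 12.4 to 15.7 TPM, and the 5 chondrocyte and 3 Schwann cell markers were each below 1 TPM in every library. By limma none of the 4 adipocyte or 2 osteoblast markers tested was called or had an unadjusted p under 0.05.

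**Figure D5:**
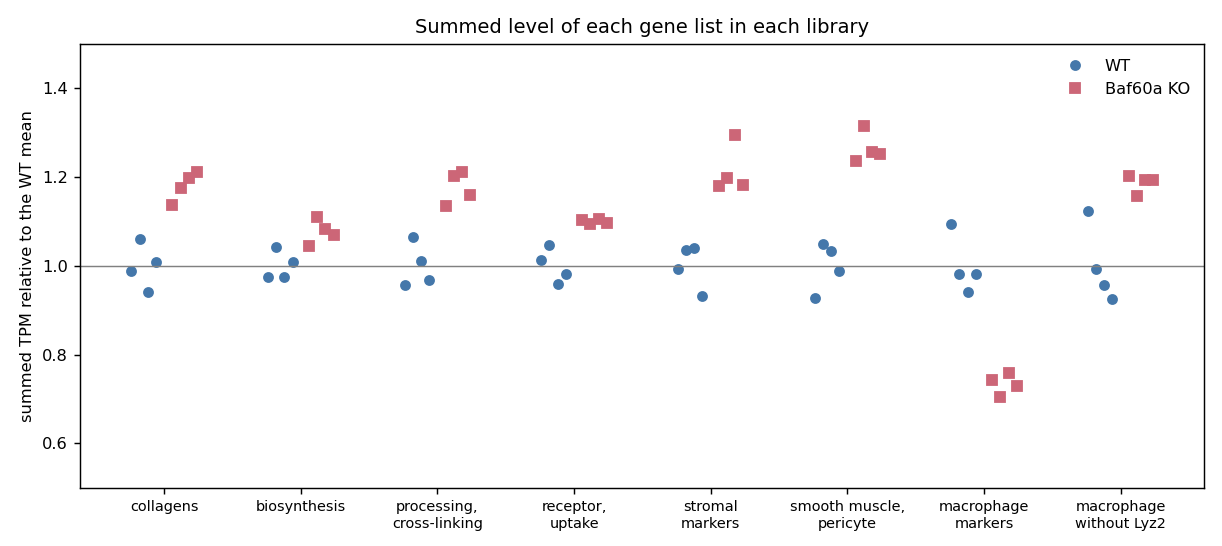
Summed TPM of each gene list in each library, divided by the WT mean of that list. Collagens lie at 1.14 to 1.21 in KO, beside 1.18 to 1.30 for stromal markers and 1.24 to 1.32 for smooth muscle and pericyte markers. Macrophage markers in KO lie below 1 with Lyz2, and at 1.158 to 1.2019 without it, within the range of the collagens.

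Outside the family, the pattern of the fibrillar collagens over the 8 libraries was matched by genes of several kinds. Among 12559 other genes with a mean over 2 TPM, the highest Pearson correlations with the mean of the 10 standardised fibrillar members were those of Tatdn2 (0.989), Skap2 (0.984), Pdzrn3 (0.983), Eif4b (0.981), Cul4a (0.981), Pnrc1 (0.978), Pbxip1 (0.975) and Sh3gl1 (0.975). These values describe 8 libraries that fall into groups, and carry no test.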

How the data were processed

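RNA from 8 libraries of BMDMs at day 7 was sequenced as paired 51 bp reads, per the labels' protocols. The submitters' processing notes name bcl2fastq, Salmon 1.2.0 and build mm10. Which transcripts Salmon was given, and with what options, is not stated in any label. The deposited values are TPM, given by the authors with 2 decimals. They keep no depth, so no counting interval or detection limit can be given, and an increase in some transcripts lowers the TPM of others. Of 55421 gene identifiers, 55240 matched GENCODE M21, and the other 181 held at most 0.0293% of a library's TPM.

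The filter kept 13933 genes, those above 1 TPM in 4 or more libraries. Their log2(TPM + 1) values, on which folds of weakly expressed genes come out too small, were fitted in limma 3.58.1 (R 4.3.3) by group, using a variance trend and no covariate, and p-values were adjusted by Benjamini and Hochberg's method across these genes. Ratios of chains were compared on the log2 scale with exact two-sided permutation tests in SciPy 1.17.1 (Python 3.11.15). Groups came from the sample titles. The steps were tested on simulated data. Alternatives covered the pseudocount, the filter, the variance model, scaling between libraries, the replicate number as a block, and left-out libraries.

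The collagen family, the lists (biosynthesis, processing and cross-linking, receptors with uptake and degradation, and markers of macrophages, stroma, smooth muscle and pericytes, endothelium, osteoblasts, chondrocytes, adipocytes and Schwann cells) and the tests were chosen with earlier results of these data known. Named genes are Smarcd1, each collagen with TPM over 1 in at least 4 libraries or a group mean over 1, other collagens with a group mean over 0.1, the called members (up to 6) and the 3 most abundant others of each other list, of which some marker genes are given only within their list's sum, and the 8 genes most correlated with the fibrillar collagens. Some further members of the family and the lists are named outside this rule, among them Col24a1, Pdgfra, Dcn, Lum, Lepr and Mmp8. Glycine repeats were counted in 1 coding sequence per gene, and promoters came from RefSeq entries on GRCm38.p6. Col12a1, Col14a1, Col1a1, Col22a1, Col26a1, Col2a1, Col4a3, Col5a2 and Col9a3 have no entry in that table.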

Additional observations from a re-analysis of the deposited data

Results flagged for a closer look

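In 14 of 168 groups of 4 libraries, 1 library lay further from the other 3 than Dixon's 95% criterion allows, where chance gives about 1 in 20 groups. In the family these were Col11a1 in KO replicate 3 (19.4 TPM, the others 17.0 to 17.3) and Col11a2 in KO replicate 4 (3.12 TPM, the others 1.27 to 1.48). Among ratios of chains, Col4a1 to Col4a2 was lowest in KO replicate 1 (1.81, the others 1.88 to 1.89), and Col4a2 to Col4a5 was highest in WT replicate 1 (15.3, the others 13.0 to 13.2). KO replicate 3 also stood apart for Cxcl12 (290.2 TPM, the others 209.6 to 217), Alpl (4.98 TPM, the others 1.72 to 1.98), Des (2.77 TPM, the others 2.05 to 2.17) and, at the low end, Adamts14 (8.28 TPM, the others 9.74 to 9.89). KO replicate 1 was high for Runx2 (11.7 TPM, the others 9.0 to 9.08) and low for Adamts2 (34.1 TPM, the others 37.7 to 38.1), and KO replicate 2 was high for Tagln (1101 TPM, the others 1011 to 1025). In WT, replicate 1 was high for Pecam1 (8.31 TPM, the others 7.12 to 7.29) and low for Ddr1 (16.4 TPM, the others 18.5 to 18.8), and replicate 3 was high for Mfap5 (4.2 TPM, the others 3.06 to 3.21).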

How the results depend on the processing

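Col8a1 and Col5a2 kept their calls in all 18 alternative limma fits, 8 of them with 1 library left out. No result changed direction in an alternative while called. The number of collagens called was 6, and was 3 with no filter on low values, where 27510 genes entered the fit, and 2 to 6 with 1 library left out. Over all genes the count of 782 went to 364 with no filter, to 372 without WT replicates 3 and 4, and to between 156 and 679 with 1 library left out. The 2 biosynthesis calls became 1 with no filter, 1 with median-of-ratios scaling, 1 with TPM rescaled over protein-coding genes, 1 with quantile normalization, and 0 to 3 with 1 library left out. The 5 processing and cross-linking calls became 2 with no filter, 2 without WT replicates 3 and 4, and 2 to 4 with 1 library left out. The 4 receptor and uptake calls became 1 to 4 with 1 library left out, and the 5 stromal marker calls became 3 with no filter and 3 to 5 with 1 library left out. Fits with a library left out rest on fewer samples and the fit with no filter adjusts over more genes; other causes were not tested. With the replicate number as a block, 209 genes, 4 collagens (Col1a1, Col5a2, Col5a3 and Col8a1), 0 biosynthesis genes (limma; 12 at an unadjusted p under 0.05), 3 processing genes, 2 receptor genes and 3 stromal markers were called. Nothing in the labels ties equal numbers together, and deviations of equally numbered libraries correlated at -0.11, 0.012, 0.0079 and -0.016, and no WT library correlated best with the KO library of its own number. As TPM keeps no depth, the precision of low members such as Col9a3 and Col11a2 cannot be stated beyond the spread between libraries.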
